A study of Mus musculus with 2 samples.

Results

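The family of glial cell line-derived neurotrophic factor (GDNF) and its receptors was described in mouse embryonic midbrain by total RNA sequencing. Its 9 genes are the ligands Gdnf, Nrtn, Artn and Pspn, the coreceptors Gfra1, Gfra2, Gfra3 and Gfra4, and the signalling receptor Ret. They were chosen by gene symbol through the Ensembl gene ID, and all 9 were found among the 43346 Ensembl genes of the deposited tables, with 28 listed transcripts. Midbrain was taken from healthy embryos of strain B6NCrl, a C57BL/6 substrain, at embryonic day 15.5. There were 2 libraries, each from a separate pool of embryos of both sexes, 78 embryos for replicate 1 and 62 for replicate 2. The libraries held 38966386 expected counts in replicate 1 and 40419493 in replicate 2. The design has 1 tissue and 1 age and no treated or control group, so the data give the level of each member and how far the pools differed. Levels are in TPM, each RNA's share of all transcript copies after its length is allowed for, and means carry the SD of the 2 libraries (n = 2).

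GDNF family ligands are secreted dimers that bind coreceptors anchored in the outer membrane by a lipid tail, the GFR-alpha proteins, and the complex then activates the receptor tyrosine kinase RET. Each ligand prefers a coreceptor: GDNF binds GFR-alpha-1, neurturin (Nrtn) GFR-alpha-2, artemin (Artn) GFR-alpha-3 and persephin (Pspn) GFR-alpha-4. GDNF is known as a trophic factor for midbrain dopaminergic neurons, which take it up from their striatal target, and artemin for sensory and sympathetic neurons outside the brain.

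Splicing sets which receptor protein can be made, and 3 receptor genes had transcripts that differ at places that matter for this. The sequences below come from the GENCODE M21 transcripts on mm10, all 3 genes lie on the minus strand, and each is written 5′ to 3′ along the RNA. In Gfra1 the capitals mark a 15-nt coding exon (chr19:58392573-58392587) that is present in Gfra1-201 and skipped in Gfra1-203, the form known as GFR-alpha-1b. In Gfra4 the capitals mark a 53-nt intron (chr2:131041342-131041394) that Gfra4-208 keeps and the coding Gfra4-206 removes. In Ret the capitals mark the coding end, up to and including the stop codon, after the last shared coding base. It is read on within the same exon in Ret-202 (chr6:118155256-118155287) and from a further exon in Ret-201 (chr6:118153853-118154010).
Gfra1-201: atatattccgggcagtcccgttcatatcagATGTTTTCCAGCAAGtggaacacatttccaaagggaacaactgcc
Gfra1-203: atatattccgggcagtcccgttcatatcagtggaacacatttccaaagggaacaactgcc
Gfra4-208: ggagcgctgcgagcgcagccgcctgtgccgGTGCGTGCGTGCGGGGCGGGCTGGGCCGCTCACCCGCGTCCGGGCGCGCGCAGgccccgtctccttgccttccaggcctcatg
Gfra4-206: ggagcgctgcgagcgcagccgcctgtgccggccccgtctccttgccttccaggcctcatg
Ret-202: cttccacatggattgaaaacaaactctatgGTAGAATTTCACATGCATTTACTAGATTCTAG
Ret-201: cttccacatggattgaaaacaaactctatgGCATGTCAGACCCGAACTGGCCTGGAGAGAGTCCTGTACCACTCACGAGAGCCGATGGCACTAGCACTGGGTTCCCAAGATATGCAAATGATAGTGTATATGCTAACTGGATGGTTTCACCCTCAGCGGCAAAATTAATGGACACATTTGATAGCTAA

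Most receptor genes of the family were expressed and most ligand genes were not. Of the 9 members, 5 reached 1 TPM in both libraries, the level used here to call a gene expressed: Gfra1, Gfra4, Gfra2, Ret and Nrtn. Of all Ensembl genes 35.4% reached it. Expressed were 3 of the 4 coreceptors and Ret, but 1 of the 4 ligands. The median level of the coreceptors was 22.4 ± 1.82 TPM and that of the ligands 0.598 ± 0.194 TPM. Gfra4 passed through transcripts annotated as retaining an intron. With coding transcripts alone, an alternative chosen after seeing the data, Gfra4 was not expressed (0.59 TPM in replicate 1 and 1.24 TPM in replicate 2), which left 4 of 9 members and 2 of 4 coreceptors expressed and a coreceptor median of 5.96 ± 1.10 TPM. The median of the 5 expressed members was 11.0 ± 1.75 TPM, against 17.0 ± 0.0919 TPM over all 15347 expressed genes. In bulk tissue, RNA from few cells with much of it and from many cells with little cannot be told apart.

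**Figure D1:**
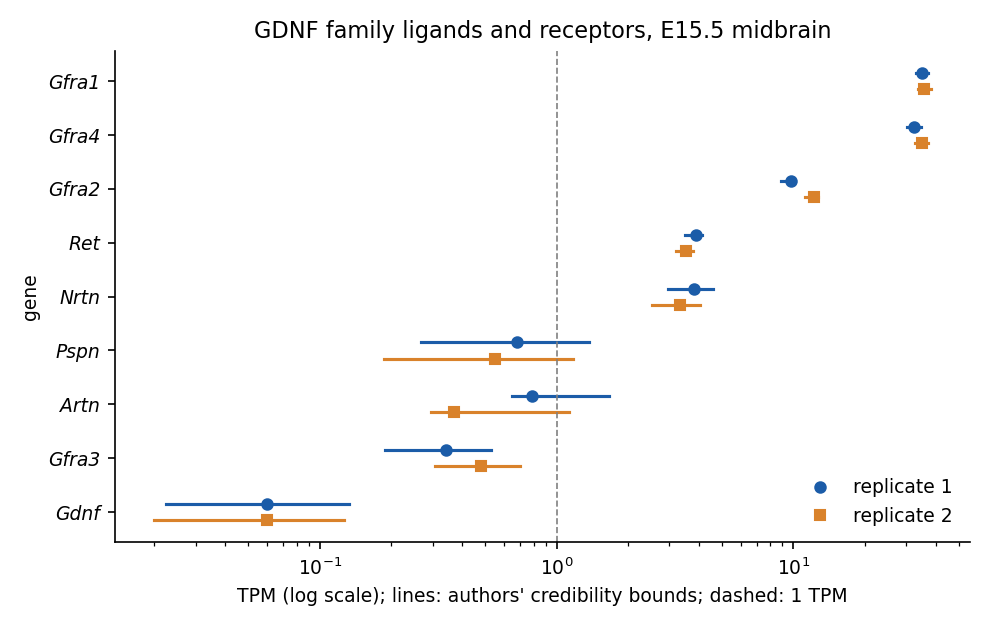
TPM of the 9 members on a log scale, in replicate 1 (circles) and replicate 2 (squares), with the credibility bounds that the authors deposited as lines and 1 TPM dashed. Gfra1 and Gfra4 lie at 32.4 to 35.6 TPM at the top and Gdnf at 0.06 TPM at the bottom, and the libraries lie farthest apart for Artn (0.79 and 0.37 TPM).

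Among the ligands, Gdnf (chromosome 15, 7810846 to 7837575), which gives the family its name, was the lowest member. It had 5 counts in replicate 1 and 5 in replicate 2, or 0.06 TPM in each, and an exact 95% Poisson interval of 1.62 to 11.7 counts per library. RNA of the gene was thus detected in both pools, at the edge of what this depth resolves. Pspn (chromosome 17, 56999457 to 57000018) had 6 counts and 0.68 TPM in replicate 1, and 5 counts and 0.55 TPM in replicate 2. Its mRNA of 474 nt gives a TPM well above that of Gdnf from a like number of counts. Artn (chromosome 4, 117926162 to 117929763) stood at 0.79 TPM in replicate 1 and 0.37 TPM in replicate 2, from 27 and 13 counts. Nrtn (chromosome 17, 56751325 to 56757530) was the ligand that passed the threshold, with 3.80 TPM in replicate 1 and 3.32 TPM in replicate 2, or 3.56 ± 0.339 TPM. The counting intervals of Nrtn, 65.2 to 102 counts in replicate 1 and 58.1 to 92.9 in replicate 2, overlapped widely. PCR copies cannot be told from separate molecules here, so these intervals cover counting error only.

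Gfra1 (chromosome 19, 58235604 to 58455909), the coreceptor of GDNF, was the highest member with 34.8 TPM in replicate 1 and 35.6 TPM in replicate 2 (mean 35.2 ± 0.523). In level it exceeded 88.8% of all Ensembl genes. Gfra4 (chromosome 2, 131039632 to 131043088), the coreceptor of persephin, followed with 32.4 TPM in replicate 1 and 35.1 TPM in replicate 2 (33.8 ± 1.90). The values of these coreceptor genes overlapped, so their order is not resolved. Gfra2 (chromosome 14, 70890120 to 70979838), the coreceptor of neurturin, had 9.76 TPM in replicate 1 and 12.2 TPM in replicate 2 (11.0 ± 1.75), below both in each library. Gfra3 (chromosome 18, 34689898 to 34720387), the coreceptor of artemin, had 0.34 TPM from 15 counts in replicate 1 and 0.48 TPM from 22 counts in replicate 2. Its range met that of Artn and lay below that of Pspn. From the top the order was thus Gfra1 and Gfra4, then Gfra2, then Ret and Nrtn, then Pspn, Artn and Gfra3, then Gdnf, with neighbours inside each step overlapping between libraries.

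Ret (chromosome 6, 118151745 to 118197718), the kinase that the coreceptors share, had 3.88 TPM in replicate 1 and 3.53 TPM in replicate 2 (3.71 ± 0.247). It thus lay close to Nrtn, whose range it overlapped, while Gfra1 had 8.97 times its TPM in replicate 1 and 10.1 times in replicate 2. The summed TPM of the 4 coreceptors was 19.9 times that of Ret in replicate 1 and 23.6 times in replicate 2, and with coding transcripts alone 11.7 times in replicate 1 and 14.0 times in replicate 2. On the log2(TPM + 1) scale the difference over all transcripts was 4.11 ± 0.152. The difference to Ret was 2.94 ± 0.0968 for Gfra1, 2.88 ± 0.155 for Gfra4 over all of its transcripts and 1.34 ± 0.287 for Gfra2, each above its SD, while Gfra3 lay below Ret by a difference of -1.74 ± 0.177. With 2 libraries no exact two-sided sign-flip test can go below p = 0.5, so these differences carry no test.

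Each coreceptor was set against its preferred ligand within each library. Gfra1 exceeded Gdnf by 5.09 ± 0.0209 on the log2(TPM + 1) scale, the widest gap of the 4 pairs. Gfra4 exceeded Pspn by 4.43 ± 0.161 when all transcripts of Gfra4 were counted, whatever their type. Gfra2 exceeded Nrtn by 1.39 ± 0.318, and this is the pair in which both partners were expressed. For Gfra3 and Artn the difference was -0.42 in replicate 1 and 0.11 in replicate 2, so which of the pair is higher is not resolved.

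Nearly all RNA counted for Gfra4 was assigned to transcripts annotated as keeping an intron, not to those that encode the receptor. The transcripts Gfra4-208 and Gfra4-207 together took 98.2% of the gene's abundance in replicate 1 and 96.5% in replicate 2 (97.3 ± 1.21%). The 6 coding transcripts summed to 0.59 TPM in replicate 1 and 1.24 TPM in replicate 2, from 14.9 and 30.5 expected counts. With coding transcripts alone the direction between Gfra4 and Ret turned round: Gfra4 minus Ret was -1.32 and Gfra4 minus Pspn 0.23 on the log2(TPM + 1) scale. The leading transcript was Gfra4-208, with 20.9 TPM in replicate 1 and 21.6 TPM in replicate 2, and Gfra4-207 had 10.9 TPM in replicate 1 and 12.3 TPM in replicate 2. Both begin within the second exon of the coding transcripts and hold the 53-nt intron printed above. Gfra4-207 also keeps introns of 540 nt and 73 nt further downstream. Outside the 53-nt intron, the bases of Gfra4-208 are all found in Gfra4-206 too. The split between them thus rests mainly on reads in that intron and on reads upstream of the start of Gfra4-208. The part of low 5′ coverage in this split was not tested. Inserted into the reading frame of Gfra4-206, the 53-nt intron shifts the frame and brings a stop after 190 codons, against 293 codons without it. This joined sequence is not a listed transcript, and what protein, if any, the measured RNA encodes was not tested.

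**Figure D2:**
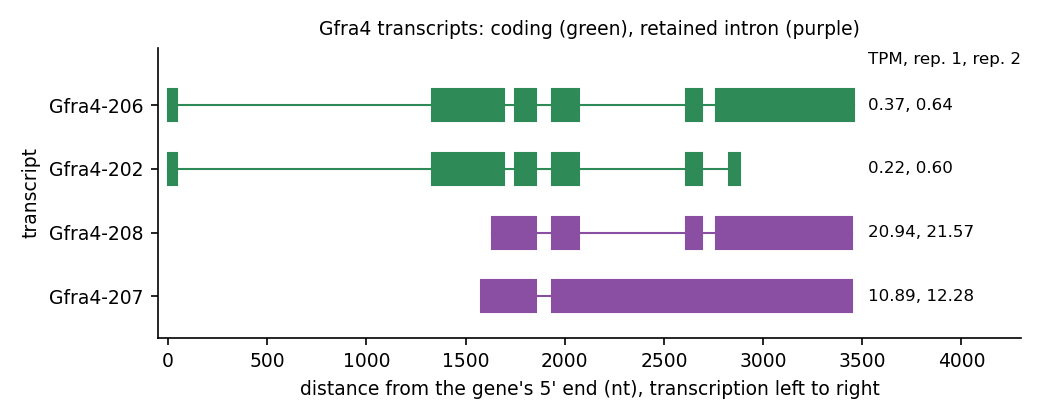
Exons (boxes) of 4 Gfra4 transcripts against the distance in nt from the gene's 5′ end, with each transcript's TPM in replicate 1 and replicate 2 at the right. The coding transcripts Gfra4-206 and Gfra4-202 have 0.22 to 0.64 TPM, and the transcripts that keep introns, Gfra4-208 and Gfra4-207, have 10.9 to 21.6 TPM.

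Such a share was uncommon among genes in these libraries. Of 5333 expressed protein-coding genes with a listed retained-intron transcript, 6.00% gave such transcripts at least 50% of their abundance in both libraries, and the median share was 10.2%. In 12 of them, Gfra4 included, the mean share was at least that of Gfra4. The estimate for the coding forms is loose: Gfra4-206 had a posterior mean of 6.58 counts with a posterior SD of 6.06 in replicate 1, and 19.2 with an SD of 9.43 in replicate 2. A microRNA gene of 80 nt, Mir6973b, lies across the 73-nt intron of Gfra4 on the same strand and was listed at 0 in both libraries. The libraries were made from RNA longer than 200 nt, so this 0 does not tell whether the microRNA was present.

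Gfra1 was read mainly from full-length coding forms that carry the 15-nt exon. Transcripts with the exon had 21.5 TPM in replicate 1 and 20.9 TPM in replicate 2, led by Gfra1-201 with 17.2 TPM in replicate 1 and 18.6 TPM in replicate 2. Gfra1-203, which skips it, had 6.13 TPM in replicate 1 and 6.98 TPM in replicate 2. Of the transcripts that reach this position, those with the exon took 77.8% in replicate 1 and 74.9% in replicate 2 (76.4 ± 2.04%). The forms share nearly all of their bases, and the posterior SD of the count of Gfra1-203 was 152 on a posterior mean of 601 in replicate 1, and 180 on 738 in replicate 2.

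A short 5′ transcript, Gfra1-204, was the second highest form of Gfra1 by TPM, with 6.66 TPM in replicate 1 and 7.41 TPM in replicate 2. It opens with an upstream first exon of 449 nt (chromosome 19, 58455461 to 58455909) and ends, as annotated, before the 15-nt exon. Its counts were firm, with a posterior SD of 5.85 on a posterior mean of 114 in replicate 1 and of 6.34 on 132 in replicate 2. Which 3′ part those molecules carry is not given by the tables. The TPM of Gfra1-204 rests on its annotated length of 841 nt and would be lower if the molecules run on. By expected counts Gfra1-204 lay below Gfra1-203, with 116 against 618 in replicate 1 and 133 against 726 in replicate 2. At its other end Gfra1 overlaps the antisense gene Gm16277 by 444 nt. Gm16277 stood at 2.31 TPM in replicate 1 and 3.73 TPM in replicate 2, and without knowing that reads were counted by strand, reads in the overlap cannot be told apart.

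Ret was read mainly as the form with the short tail. Ret-202, which adds 9 residues of its own after the shared part of the protein and is known as RET9, took 87.3% of the gene's abundance in replicate 1 and 93.0% in replicate 2 (90.2 ± 4.04%). Ret-201, with 51 residues of its own and known as RET51, took 12.7% in replicate 1 and 6.96% in replicate 2. The coding end of Ret-202 lies within an intron of Ret-201, and the part of unspliced RNA in these shares was not tested. The count of Ret-201 was hardly above its own uncertainty, with a posterior mean of 66.8 and SD of 39.1 in replicate 1, and 51.0 and 36.1 in replicate 2. The transcripts counted by the authors were 7341 nt (Ret-202) and 6064 nt (Ret-201) long, against 4497 and 5456 nt in M21, so the ends of the 2 annotations differ and the share of tails is an estimate.

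**Figure D3:**
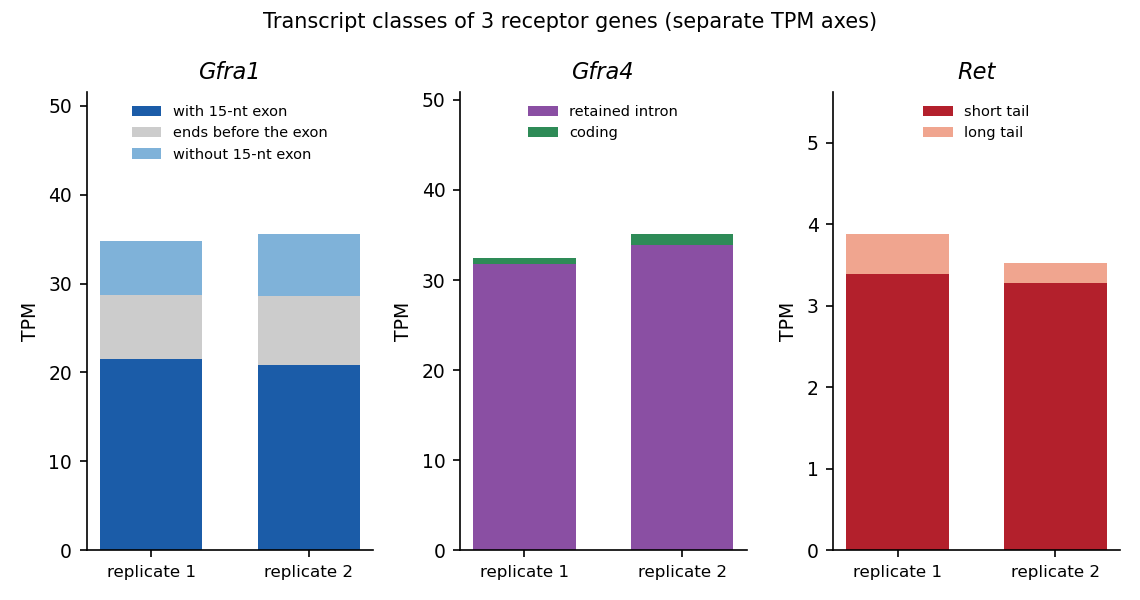
TPM of transcript classes in replicate 1 and replicate 2 for Gfra1, Gfra4 and Ret, as stacked bars with a TPM axis for each gene. Transcripts with the 15-nt exon make up most of Gfra1, retained-intron transcripts nearly all of Gfra4 (31.8 and 33.9 TPM), and the short-tailed form most of Ret.

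The other members gave little room for isoforms. Gdnf, Nrtn, Pspn, Gfra2 and Gfra3 had 1 listed transcript each, and all expected counts of Artn were assigned to Artn-202, whose coding sequence of 672 nt is as long as that of Artn-201. By posterior means the share of Artn-202 was 66.7% in replicate 1 and 50.7% in replicate 2, and the level of Artn averaged 0.90 TPM. Reads of the members were assigned to their genes with little doubt. The posterior SD of the gene count was 0 in both libraries for 8 of 9 members, and for Gfra1 it was 8.13 of 2877 counts in replicate 1 and 9.14 of 3056 in replicate 2.

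The 2 pools were also compared with each other. The counts of replicate 1 and replicate 2 were compared by a two-sided exact binomial test for each gene with a mean of 10 or more counts, which leaves out Gdnf and Pspn. A gene was called at a Benjamini-Hochberg adjusted p under 0.05, over all 18269 genes tested, and a 2-fold difference. None of the 7 tested members was called by the exact test, against 1.63% of all genes. With so low a share of all genes called, 0 of 7 does not set the members apart. No member was called with DESeq2 size factors, total counts, no filter or a fold limit of 1.5. Of all 18269 genes tested, 297 were called with DESeq2 size factors, 294 with total counts and 527 at 1.5-fold. With no filter 366 of 25614 genes were called. These tests speak of the 2 RNA samples sequenced and not of any condition, and their p-values leave out the spread that further pools would show.

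Gfra2 passed the exact binomial test without the fold limit. It had 767 counts in replicate 1 and 992 in replicate 2, a log2 ratio of replicate 1 over replicate 2 of -0.33 and an adjusted p by that exact test of 5.4e-05. Without a fold limit 19.3% of all genes passed, and Gfra2 was the 1 member among them. Artn had the widest ratio, 2.10-fold higher in replicate 1 with 27 counts than in replicate 2 with 13, and an adjusted p of 0.103 by the exact binomial test (unadjusted 0.0259). The log2 ratio was 0.12 for Ret, -0.04 for Gfra1, -0.12 for Gfra4, 0.19 for Nrtn and -0.49 for Gfra3, with adjusted p from 0.175 to 0.648 by the exact test.

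**Figure D4:**
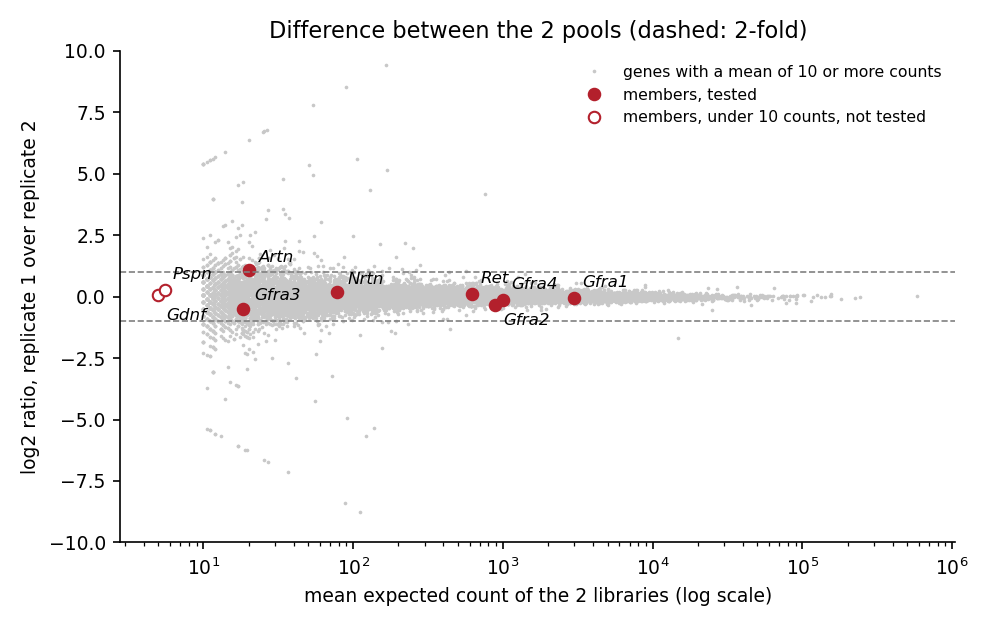
Log2 ratio of replicate 1 over replicate 2 against the mean expected count (log scale) for all tested genes (grey) and the 9 members (red, open where not tested), with 2-fold dashed. Artn sits just above the upper 2-fold line at low counts, and the other members lie between the lines.

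Markers of other cells were read beside these values. Between the pools 1.63% of all tested genes were called, in either direction. The 4 noradrenergic genes of the list, of which 0 were expressed, summed to 7.49 TPM in replicate 1 and 1.98 TPM in replicate 2. Of these, Dbh and Slc6a2 were called higher in replicate 1, as were 3 of 4 liver genes. All 3 keratin genes of skin were called higher in replicate 2, with a sum of 0.64 TPM in replicate 1 and 13.2 TPM in replicate 2. Peripheral sensory and sympathetic genes summed to 26.1 TPM in replicate 1 and 23.0 TPM in replicate 2, with 4 of 7 expressed. Prph, a neurofilament-like gene of peripheral neurons named after its values were seen, had 7.98 TPM in replicate 1 and 3.97 TPM in replicate 2. The channel genes of pain-sensing neurons on this list were unlike in level. Scn9a had 10.1 TPM in replicate 1 and 11.1 TPM in replicate 2, from 1416 and 1621 counts. Trpv1 had 8 counts in replicate 1 and 12 in replicate 2, and Scn10a 3 and 0. Smooth muscle genes summed to 31.6 and 29.0 TPM and meningeal genes to 310.7 and 272.6 TPM in replicate 1 and replicate 2, neural crest glia genes to 2.98 and 3.22 TPM, and no gene of these lists was called. The part of such cells in the ratio of Artn or Gfra2 was not tested. As to the tissue, 6 of 7 midbrain identity genes were expressed, En2 being below 1 TPM in replicate 2, and 0 of 5 hindbrain Hox genes were, though Hoxb5 was called higher in replicate 1 (24 counts) than in replicate 2 (3 counts).

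Marker RNAs of neurons known to respond to GDNF were present in the tissue. All 10 dopaminergic genes were expressed, with a summed level of 138 TPM in replicate 1 and 144 TPM in replicate 2. Th, for the enzyme that makes the dopamine precursor, stood at 7.27 times the TPM of Ret in replicate 1 and 8.20 times in replicate 2. The 3 serotonergic genes were all expressed, with 9.90 TPM in sum in replicate 1 and 12.1 TPM in replicate 2. Of the motor neuron genes 2 of 6 were expressed, with a sum of 31.8 TPM in replicate 1 and 28.5 TPM in replicate 2, most of it Isl1 (26.5 ± 2.02 TPM), while the acetylcholine enzyme gene Chat had 0.16 TPM in replicate 1 and 0.44 TPM in replicate 2 and was called lower in replicate 1. Which of these cells held the Ret or Gfra1 RNA is not given by bulk tissue.

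Genes that carry GDNF signals without RET were all more abundant in TPM than Ret. All 5 of that list were expressed. Ncam1, a neural adhesion molecule that binds GDNF together with GFR-alpha-1, had 418 TPM in replicate 1 and 460 TPM in replicate 2, or 108 and 130 times the level of Ret. Sdc3, a heparan sulfate proteoglycan that binds GDNF, had 153 TPM in replicate 1 and 147 TPM in replicate 2. Fyn, the kinase downstream of NCAM, averaged 57.8 ± 0.714 TPM, and the integrin subunit genes Itgb1 and Itgav averaged 62.9 ± 2.06 and 13.4 ± 0.403 TPM. These genes are also used by many other pathways.

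The divergent branch of the family was nearly silent except for Gas1. Gfral, the brainstem receptor of GDF15 that also signals through RET, had 0 counts in both libraries, which allows up to 0.0692 TPM in replicate 1 and 0.0670 TPM in replicate 2 (3 counts). Its ligand gene Gdf15 had 0.10 TPM in replicate 1 and 0.16 TPM in replicate 2. Gas1, a membrane protein related to the coreceptors that can bind RET and also serves Sonic hedgehog signalling, had 19.0 TPM in replicate 1 and 12.3 TPM in replicate 2. Gas1 was not called, being 1.54-fold higher in replicate 1 with an adjusted p of 1.4e-20 by the exact binomial test.

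The adapters and effectors of RET were expressed almost in full, with 29 of 30 genes past the level threshold, and the list's median was 31.8 ± 1.16 TPM. Among the highest were Pdlim7, a scaffold that binds the RET tail, with 138 ± 1.22 TPM, and the adapter Grb2 with 138 ± 2.58 TPM. The adapter Grb7, at 0.66 TPM in replicate 1 and 0.91 TPM in replicate 2, fell short of the threshold. Over all 7 pathway lists, which include genes upstream of RET and beside it, 55 of 62 genes were expressed. Of the 58 tested 0 were called between the pools by the exact test, against 1.63% of all genes, and 15 had an adjusted p under 0.05 at any fold, against 19.3% of all genes.

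Among 8 negative regulators 7 passed the level threshold, and the list's median was 14.3 ± 0.499 TPM. It was led by the phosphatase gene Ptprf with 55.2 ± 1.60 TPM, the ERK phosphatase gene Dusp6 with 20.8 ± 0.651 TPM and the feedback inhibitor Spry2 with 20.2 ± 0.651 TPM. The ubiquitin ligase gene Cblc was below the threshold at 0.33 TPM in replicate 1 and 0.46 TPM in replicate 2. Of 6 genes for processing and sorting of the ligands 5 were expressed, the highest being the sorting receptor Sort1 with 21.4 ± 0.0707 TPM, the protease Pcsk7 with 16.8 ± 1.02 TPM and the sorting receptor Sorl1 with 7.64 ± 1.31 TPM. The protease Pcsk6 had 0.91 TPM in replicate 1 and 0.90 TPM in replicate 2.

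Of 7 factors known upstream of Ret, Gdnf or the neurons that use them, 5 were expressed. Gata3, a factor of inhibitory midbrain neurons that acts upstream of Ret in the kidney, averaged 88.0 ± 9.27 TPM, and Nr4a2, which is needed for Ret in dopaminergic neurons, 32.9 ± 0.304 TPM. Phox2a, a factor of noradrenergic and cranial motor neurons, was below the threshold and had 0.45 TPM in replicate 1 and 0.08 TPM in replicate 2. The ETS factor genes that RET signalling switches on in the kidney were all expressed, with Etv1 at 15.9 ± 0.905, Etv5 at 13.1 ± 1.89 and Etv4 at 5.49 ± 0.962 TPM.

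**Figure D5:**
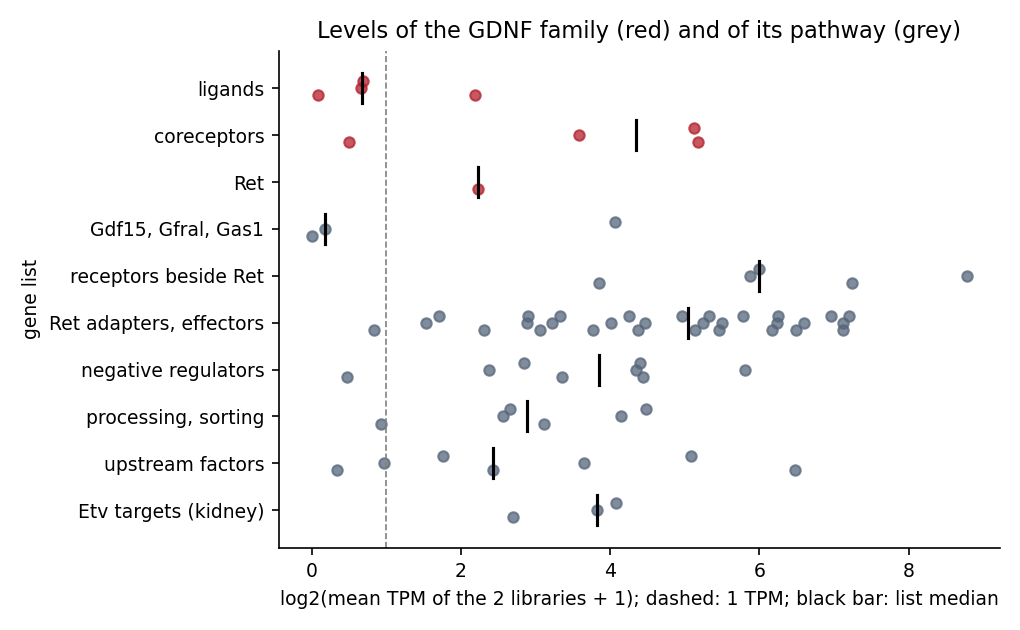
Log2(mean TPM + 1) of each gene (dots, mean of the 2 libraries) by list, with the GDNF family in red, its pathway in grey, list medians as black bars and 1 TPM dashed. Of the 4 ligands 1 lies right of the dashed line, against 29 of 30 adapters and effectors.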

How the data were processed

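Total RNA longer than 200 nt was sequenced from 2 pools of midbrain, with 10 ng of RNA per library and spike-in RNA added, per the labels. Per the file headers, the authors deposited expected counts, TPM, FPKM and posterior means and SDs for genes and transcripts, the percent of its gene that each transcript takes, and credibility bounds of TPM, whose level is not stated. The build was mm10 and the annotation GENCODE M4, per the notes deposited beside the tables. Not given in the sources used here are aligner, counting tool and strand setting. Rows without an Ensembl ID took 2.30% of counts in replicate 1 and 2.42% in replicate 2 and were left out of library sizes and tests; the deposited TPM was scaled with them.

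Symbols, transcript names, types, coordinates and sequences came from GENCODE M21 on the same build; 23 of the 28 transcripts were matched with an unchanged length. Expected counts were rounded and the libraries compared by an exact binomial test with TMM library sizes (edgeR 4.0.16, R 4.3.3), since 1 library per pool leaves no degrees of freedom for a fitted spread. A ratio had 0.5 added to each count. The test was run on simulated Poisson counts, which hold no spread between pools, so this checks the calculation only. DESeq2 1.42.0 gave alternative size factors. Differences used log2(TPM + 1), which understates low genes. Other steps ran in Python 3.11.15 (scipy 1.17.1, pandas 2.3.3, numpy 2.4.6; figures with matplotlib 3.10.9).

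The members and all gene lists were chosen with earlier results of these data known. Named were all members, all genes of the 2 short receptor lists and, of other pathway lists, the 3 highest, any called and any below 1 TPM. Some genes that this rule names are not reported here.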

Additional observations from a re-analysis of the deposited data

How the results depend on the processing

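No paired analysis was possible because the 2 libraries belong to 1 group. The counts of expressed members and of each pathway list stayed within 1.5 times under thresholds of 0.5 and 2 TPM, under 1 FPKM and without either replicate. The number of members called stayed at 0 under DESeq2 size factors, total counts, no filter and a 1.5-fold limit, and was 1 with no fold limit. Over all genes 298 were called, against 527 at 1.5-fold and 3534 with no fold limit. A pseudocount of 0.1 widened differences, to 7.79 for Gfra1 minus Gdnf, 5.57 for Gfra4 minus Pspn, 3.21 for Gfra1 minus Ret, -2.91 for Gfra3 minus Ret, 3.15 for Gfra4 minus Ret and 4.40 for the summed coreceptors minus Ret. TPM over Ensembl genes alone gave 5.17 for Gfra1 minus Gdnf. Gfra3 minus Artn was -0.42 without replicate 2 and 0.11 without replicate 1, a reversal. Counting coding transcripts alone, an alternative chosen after seeing the data, turned Gfra4 minus Ret round to -1.32 and gave 0.23 for Gfra4 minus Pspn and 3.37 for the summed coreceptors minus Ret; it also gave 0.92 TPM for Gfra4 and left 4 of 9 members expressed. The cause of these shifts was not tested beyond what each setting changes by construction. The posterior mean percent was 58.7 for Artn-202. At this depth Gdnf, Pspn, Artn and Gfra3 rest on 5 to 27 counts per library, so the order of Pspn, Artn and Gfra3 is not resolved.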
